A study of Mus musculus with 4 samples.

Results

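The strongest distal sites that were open in every library were examined in embryoid bodies carrying WT CTCF or CTCF-K20R, in which lysine 20 of CTCF was replaced by arginine. Chromatin accessibility had been measured by ATAC-seq, an assay that inserts sequencing adapters wherever a transposase can reach the DNA. A site was taken as a member when a peak was present in all 4 libraries, when that peak stood at percentile 85 or higher of significance within each library, and when its summit lay more than 2 kb from the transcription start site (TSS) of every protein-coding transcript in the basic set of GENCODE. Of 80380 regions obtained by merging the peaks of all libraries, 37692 were autosomal and open in all 4. Of these, 6227 were strong in every library, 5452 within 2 kb of a protein-coding TSS and 775 beyond it. The 775 distal sites are the members described here. They made up 3.34% of the 23219 common distal regions, and the other 22444 are called the other distal regions.

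All cells were E14Tg2A mouse embryonic stem cells (mESCs). The K20R change had been introduced by CRISPR/Cas9, and the sources used here do not give whether the mutant line was 1 clone. Cells of both genotypes had been kept with LIF and 2i on mouse embryo fibroblasts inactivated with mitomycin C, and were then grown without LIF, in serum, as embryoid bodies in hanging drops for 4 days. Embryoid bodies are aggregates of stem cells that begin to differentiate into early lineages, so that the peaks of a library are those of a mixture of cells. There were 2 libraries of each genotype, which the methods call biological replicates.

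Distal open sites are mostly enhancers, insulators, and promoters of genes that make no protein. CTCF is a zinc finger protein that binds a long DNA motif, and with cohesin it holds chromatin loops and domain boundaries in place. Enhancers of embryonic stem cells are bound by POU, SOX and KLF proteins, whereas promoters often hold a CCAAT box, bound by NFY, and GC-rich boxes bound by SP and KLF proteins.

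The sequences of 14 members are printed as the 201 bases centred on the strongest summit, from the plus strand of the RefSeq GRCm38.p6 assembly, with matches to a consensus in capitals. The first set shows members with a high level that stood at or near the start of a non-coding RNA gene, or in an intron. Capitals mark the NFY consensus CCAATCAG. The member of this set with NFY capitals, like those for POU and KLF, was chosen after its values were seen.
Gm15287 (nearest coding gene Mier3), chr13:111725465-111725665: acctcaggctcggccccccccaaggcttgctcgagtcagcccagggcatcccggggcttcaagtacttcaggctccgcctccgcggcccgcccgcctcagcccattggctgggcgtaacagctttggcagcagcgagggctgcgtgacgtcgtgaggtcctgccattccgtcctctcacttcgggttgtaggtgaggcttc
4932412D23Rik (nearest coding gene Zbtb20), chr16:42875430-42875630: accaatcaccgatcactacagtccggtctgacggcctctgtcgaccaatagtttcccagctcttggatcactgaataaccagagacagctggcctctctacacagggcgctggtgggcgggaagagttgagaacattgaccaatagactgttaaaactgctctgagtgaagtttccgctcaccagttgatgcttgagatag
Phf19 intron, chr2:34905043-34905243: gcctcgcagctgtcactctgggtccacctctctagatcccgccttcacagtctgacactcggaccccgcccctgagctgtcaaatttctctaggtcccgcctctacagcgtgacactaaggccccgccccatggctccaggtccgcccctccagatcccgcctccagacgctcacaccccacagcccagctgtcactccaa
Gm25939 (nearest coding gene Pecr), chr1:72255157-72255357: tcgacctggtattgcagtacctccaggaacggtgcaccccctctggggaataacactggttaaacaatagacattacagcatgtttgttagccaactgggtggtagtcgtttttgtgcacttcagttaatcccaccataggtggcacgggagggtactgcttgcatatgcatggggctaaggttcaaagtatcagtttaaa
Mir22hg (nearest coding gene Tlcd2), chr11:75461373-75461573: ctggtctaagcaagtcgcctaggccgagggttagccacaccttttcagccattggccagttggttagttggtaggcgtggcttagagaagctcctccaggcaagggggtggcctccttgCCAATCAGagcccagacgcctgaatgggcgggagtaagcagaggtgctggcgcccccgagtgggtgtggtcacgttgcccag

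The second set shows 3 of the 5 members with the highest level among those with the CTCF consensus, which the capitals mark on either strand. Only 30 members held it.
Agrp intron (nearest coding gene Ctcf), chr8:105622507-105622707: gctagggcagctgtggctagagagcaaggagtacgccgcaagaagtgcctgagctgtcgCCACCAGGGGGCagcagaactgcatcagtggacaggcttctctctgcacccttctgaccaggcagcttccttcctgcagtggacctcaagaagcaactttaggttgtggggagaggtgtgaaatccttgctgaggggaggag
Mt1, chr8:94186664-94186864: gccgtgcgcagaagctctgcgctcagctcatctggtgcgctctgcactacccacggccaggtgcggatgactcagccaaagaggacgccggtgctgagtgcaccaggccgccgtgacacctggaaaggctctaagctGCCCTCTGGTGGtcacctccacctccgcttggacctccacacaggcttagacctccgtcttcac
Bcan, chr3:87987073-87987273: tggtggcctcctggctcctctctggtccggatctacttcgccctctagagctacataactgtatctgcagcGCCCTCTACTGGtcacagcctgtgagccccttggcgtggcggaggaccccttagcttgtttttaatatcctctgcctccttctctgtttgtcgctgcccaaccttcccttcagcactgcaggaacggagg

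The third set shows a member with the POU octamer ATGCAAAT or its reverse complement, and a member with the KLF consensus GGGNGTGGC or its reverse complement, in capitals.
Mir210 (nearest coding gene Rassf7), chr7:141221723-141221923: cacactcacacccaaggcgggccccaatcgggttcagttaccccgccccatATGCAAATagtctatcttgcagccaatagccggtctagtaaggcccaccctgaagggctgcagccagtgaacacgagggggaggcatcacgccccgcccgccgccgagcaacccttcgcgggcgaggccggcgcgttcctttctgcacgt
Ctdsp1, chr1:74397376-74397576: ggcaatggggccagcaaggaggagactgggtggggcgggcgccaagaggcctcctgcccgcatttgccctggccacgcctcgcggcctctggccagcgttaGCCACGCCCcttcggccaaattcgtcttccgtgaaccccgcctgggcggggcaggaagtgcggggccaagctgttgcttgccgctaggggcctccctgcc

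The fourth set shows members with a wide gap between the genotypes, 2 with lower and 2 with higher levels in K20R. Capitals mark the TCF-LEF consensus ATCAAAGG at Hunk and the KLF consensus, which occurred at 2 places, at Gm10505.
Hunk intron, lower in K20R, chr16:90437394-90437594: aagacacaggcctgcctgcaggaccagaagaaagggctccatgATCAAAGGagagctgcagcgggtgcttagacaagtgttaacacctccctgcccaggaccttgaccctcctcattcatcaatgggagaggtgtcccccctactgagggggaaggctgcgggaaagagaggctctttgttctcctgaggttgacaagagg
Rbms2 intron, lower in K20R, chr10:128149693-128149893: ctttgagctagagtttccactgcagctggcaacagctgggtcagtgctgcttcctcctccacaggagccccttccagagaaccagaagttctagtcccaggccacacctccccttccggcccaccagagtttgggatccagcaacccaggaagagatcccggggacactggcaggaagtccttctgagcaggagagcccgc
Btaf1, higher in K20R, chr19:37018527-37018727: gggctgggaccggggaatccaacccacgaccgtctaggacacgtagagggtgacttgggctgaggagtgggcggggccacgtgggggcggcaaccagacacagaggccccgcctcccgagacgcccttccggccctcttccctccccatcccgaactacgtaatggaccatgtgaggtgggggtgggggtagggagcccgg
Gm10505 (nearest coding gene Lemd2), higher in K20R, chr17:27325127-27325327: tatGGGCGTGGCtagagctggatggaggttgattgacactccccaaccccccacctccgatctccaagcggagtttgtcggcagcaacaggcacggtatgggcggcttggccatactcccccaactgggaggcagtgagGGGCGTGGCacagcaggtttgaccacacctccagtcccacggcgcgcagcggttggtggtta

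The 4 peak lists held 59783 and 66703 peaks in WT and 51823 and 55832 in K20R. The height of a peak is given as the summit pileup, the number of fragments stacked over the summit, which was recovered from the deposited fold and p. Common regions had median pileups of 38 and 39 in the first libraries of WT and K20R, and of 56 and 58 in the second libraries, which were thus the deeper or more enriched ones. Read totals were not used here and depth is therefore unknown. Levels were compared between libraries only after division by this median (relative level), or as log2 pileups centred on it. With 2 libraries against 2, an exact permutation test cannot give a two-sided p below 0.333.

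Members had pileups of 53 to 732 and 80 to 673 in the WT libraries, with medians of 97 and 151. In K20R they ran from 55 to 966 and from 83 to 1028, with medians of 104 and 166. Members had a median relative level of 2.55 and 2.70 in the WT libraries, against 2.67 and 2.86 in the K20R libraries. These values were selected by the rule and are given as a description. Strong promoter regions, which passed the same percentile, had median relative levels of 2.76, 2.84, 2.97 and 3.14 in the same order of libraries, and the other distal regions 0.658, 0.661, 0.692 and 0.655. Members thus lay slightly below strong promoters in every library. Most members were simple peaks, since 741 of 775 consisted of 1 peak in each library, and their median width was 1211 bp against 942 bp for the other distal regions and 1313 bp for strong promoters.

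**Figure D1:**
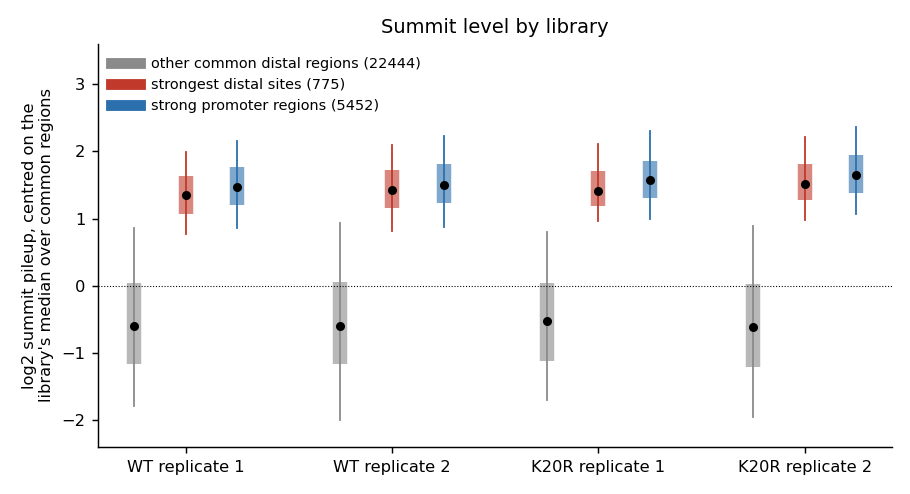
Summit level in each library, as log2 summit pileup centred on the library's median over common regions, for members, strong promoter regions and other distal regions; dots are medians, thick bars run from the 25th to the 75th and thin bars from the 5th to the 95th percentile of regions. Members had medians between 1.35 and 1.52, close to strong promoters and far above the other distal regions, whose medians lay between -0.61 and -0.53.

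The position of the summit was compared between libraries. Within a genotype the summits of a member lay a median of 19 bp apart in WT and 18 bp apart in K20R. Between genotypes the median distance was 18 to 31 bp over the 4 pairs of libraries. In the other distal regions the medians over the 6 pairs were 36 to 49 bp. The order of the members by level was alike within a genotype, with a Spearman correlation across members of 0.89 for the WT pair and 0.90 for the K20R pair, and between 0.68 and 0.70 for the pairs of different genotype. Members are not independent replicates, and all share the 4 libraries.

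To determine how many distal sites were strong in each genotype, strong distal peaks were counted in each library on its own. WT libraries had 1763 and 2386 strong distal peaks and K20R libraries 1210 and 1420. Both WT counts were above both K20R counts (2074 ± 440.5 against 1315 ± 148.5, SD, n = 2 each), a difference of 0.66 on the log2 scale (exact two-sided permutation test, p = 0.333, the smallest possible). The percentile admits more peaks from a longer list, and the WT lists were the longer ones. With the 7773 strongest peaks of each library, the counts were 1359 and 1542 in WT against 1210 and 1250 in K20R, and the log2 difference was 0.24. Among strong peaks, 20.1% and 24.4% were distal in the WT libraries, against 15.9% and 17.3% in the K20R libraries (p = 0.333 in the same exact test). Members formed 44.0% and 32.4% of the strong distal peaks of the WT libraries and 64.05% and 54.5% of those of the K20R libraries. By the rule, members supplied 775 or 774 of these peaks in every library. The shares thus follow from the counts above and are no further difference. Among common distal regions, 564 were strong in both WT and in neither K20R library, whereas 148 were strong in both K20R and in neither WT library. Only 11 were strong in both first and in neither second library. With 7773 peaks in each library, an alternative added after seeing the data, these counts were 342, 212 and 21, and 640 distal regions were strong in all.

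The 3 members with the lowest percentile were at an alternative start of Tet1, which encodes a 5-methylcytosine dioxygenase, in an intron of the Notch coactivator gene Maml3, and near Fam161a. Their lowest percentiles were 85, 85.01 and 85.01. The 3 regions just outside, near Sertad1, Dnttip2 and Mrtfb, had lowest percentiles of 85 (just under the threshold before rounding), 84.99 and 84.99. The pileups were 99, 141, 100 and 166 at Tet1 and 138, 235, 157 and 198 near Sertad1, in the order WT replicates 1 and 2 and K20R replicates 1 and 2, which is used throughout. The percentile depends on the background around a site as well as on its pileup, and the region near Sertad1 was left out with higher pileups than Tet1 in all libraries.

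The sites were then placed in the annotation. Of the 775 members, 462 (59.6%) lay outside protein-coding genes, 252 (32.5%) in introns and 61 (7.87%) in exons. Among the other distal regions, 51.7% lay outside genes, 42.0% in introns and 6.31% in exons. The median distance to the nearest protein-coding TSS was 18710 bp for members and 24530 bp for the other distal regions. By distance, 75 members lay 2 to 5 kb, 175 lay 5 to 10 kb, 330 lay 10 to 50 kb, 100 lay 50 to 100 kb and 95 lay over 100 kb from it.

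Many members were transcript starts that the rule did not count. A start of a non-coding gene lay within 500 bp of the summit in 156 members (20.1%), compared with 4.35% of the other distal regions. Another 101 members (13.0%) lay at further transcripts of the full GENCODE annotation, and another 67 (8.645%) at transcripts present only in RefSeq. These shares were 4.03% and 3.475% in the other distal regions. In total 451 members (58.2%) had no annotated start, compared with 88.1% of the other distal regions. RefSeq placed the start of an mRNA within 500 bp of 95 members and of 486 of the 22444 other distal regions. "Distal" therefore refers to the protein-coding transcripts of the GENCODE basic annotation and not to the absence of a promoter.

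The non-coding genes at these starts were of several kinds. Long intergenic RNAs were the most frequent, with 60 members, followed by 27 processed transcripts, 22 antisense RNAs and 13 small nuclear RNAs (snRNAs), which act in splicing. The start of a tRNA gene lay within 500 bp of 23 of 775 members and of 103 of the 22444 other distal regions. Members at the starts of snRNA, snoRNA or other small structural RNA genes numbered 18, and they included Rnu2-10, Rnu5g, Rn7sk and Rn7s2, genes of the splicing RNAs U2 and U5, of 7SK, which regulates transcription elongation, and of 7SL, the RNA of the signal recognition particle. Rn7sk, near Gsta4, had pileups of 116, 201, 135 and 241, and Rnu5g, near Parp16, had 91, 160, 109 and 197. These genes were named after their values were seen.

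The 10 sites with the highest mean level over the 4 libraries were then described one by one. The highest of all was a narrow site of 404 bp in the last exon of Lars2, which encodes the mitochondrial leucyl-tRNA synthetase (chr9:123461790-123462193). Its WT pileups were 732 and 673 and its K20R pileups 966 and 1028, which correspond to relative levels of 19.3, 12.02, 24.8 and 17.7. The first library of each genotype had the higher relative level, and the genotypes overlapped. The sequence of this site aligned to 16 other places of the genome over at least 80 bp with 90% identity or more, 2 of them over at least 200 bp. Its letters also look like those of the large ribosomal RNA, whose genes are repeated many times in the genome, but no full ribosomal DNA sequence was used here to check this. The part of these copies in its level was not tested.

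Starts of non-coding genes supplied 5 of the next 9 sites. At Gm24830, an snRNA gene (chr3:96327198-96329294, nearest coding gene Fcgr1), pileups were 244, 344, 272 and 427. At Gm15287, transcribed antisense near Mier3 (chr13:111724923-111726125), they were 218, 365, 230 and 395. At 4932412D23Rik, a long intergenic RNA near the transcription repressor gene Zbtb20 (chr16:42874609-42876431), they were 210, 334, 223 and 367. Gm15287 and 4932412D23Rik had no similar copy in the genome and overlapped between the genotypes. Gm24830 had 30 partial copies and lay higher in both K20R libraries on the relative scale. Its deposited folds were 10.7, 11.6, 9.70 and 10.1, lower in both K20R libraries.

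The processed pseudogene Gm42642 (chr6:3182539-3183988) and the snRNA gene Gm25939 near Pecr (chr1:72254312-72256022) were the other 2 of these starts. Pileups at Gm42642 were 157, 207, 278 and 460, and at Gm25939 151, 276, 202 and 321. WT libraries had relative levels of 4.13 and 3.70 at Gm42642 and K20R libraries 7.13 and 7.93, the widest gap among the 10 sites. Gm25939 lay higher in K20R as well, but by a small gap, and its deposited folds overlapped (9.11, 11.4, 10.25 and 10.2). It aligned to 10 other places over at least 200 bp.

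Starts found in RefSeq alone accounted for Zfp869 and a tRNA gene. Zfp869, a zinc finger gene (chr8:69716415-69717347), had pileups of 158, 236, 257 and 390 and was higher in both K20R libraries by 0.67 on the log2 scale. Its deposited folds overlapped (12.45, 12.5, 12.2 and 12.8). At the asparagine tRNA gene n-TNgtt14 near Alox5ap (chr5:149228774-149230088) pileups were 171, 293, 195 and 274, with overlapping genotypes. The remaining 2 sites lay in introns. In Phf19, which encodes an accessory protein of Polycomb repressive complex 2 (chr2:34904720-34905536), at the start of a further transcript of this gene, pileups were 204, 335, 230 and 371, and the genotypes overlapped. In Foxk1, which encodes a forkhead transcription factor (chr5:142439868-142441378) and has no annotated start at this place, they were 186, 322, 165 and 262, and both K20R libraries were lower, by 0.28 on the log2 scale. The deposited folds at this Foxk1 site overlapped.

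**Figure D2:**
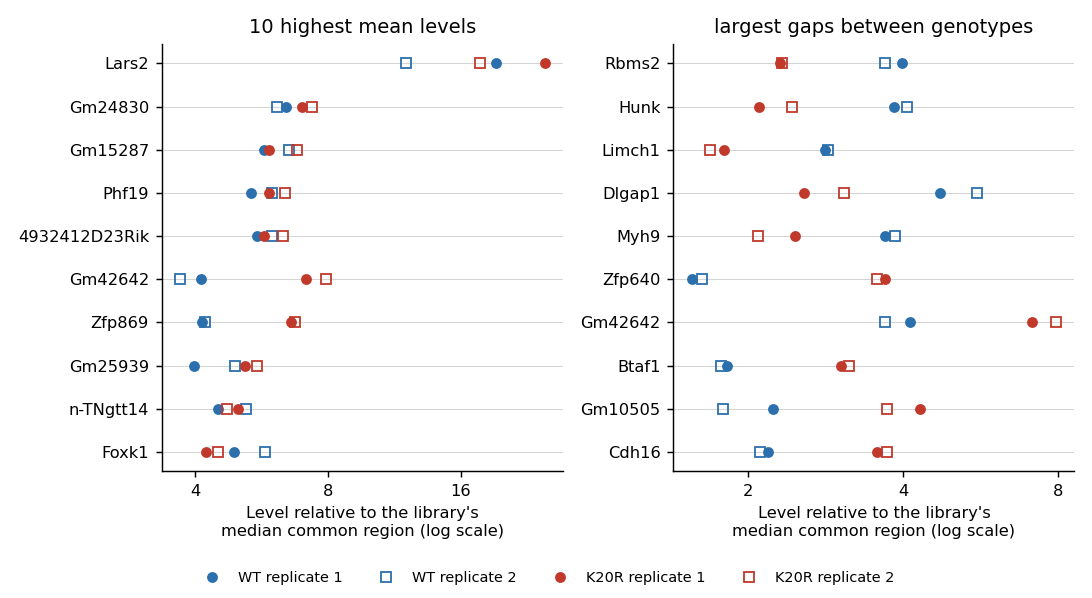
Level relative to the library's median common region, on a log2-spaced axis, for the 10 members with the highest mean level (left) and the 10 with the widest gaps between genotypes, 5 in each direction (right); each symbol is 1 library. The genotypes overlap at Lars2, Gm15287, Phf19, 4932412D23Rik and n-TNgtt14, and are apart at the other 5 sites on the left and, by choice, at all on the right.

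Copies and neighbours were counted, because reads from repeated sequence are hard to place and because neighbours are not separate observations. At least 200 bp with 90% identity or more occurred elsewhere in the genome for 88 members (11.35%), among them 57 of the 324 with an annotated start and 31 of the 451 without. None of the 775 aligned to the mitochondrial genome. Members within 50 kb of each other numbered 110. Groups of 4 lay near Mreg and Pecr, at 3 snRNA genes and D230017M19Rik, and near Tex14, at the U3 RNA genes Rnu3b1, Rnu3b3 and Rnu3b4 and at Gm22068. Pileups at Rnu3b1 were 128, 207, 180 and 281, and at Rnu3b4 126, 180, 137 and 243. Further groups of 4 lay near Chd2, near Abt1 and Btn1a1, near Nes, Bcan and Hapln2, and near Scd2.

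Base composition set the members apart from the other distal regions. The median GC content of the 201 bases around the summit was 60.7% in members, 53.2% in the other distal regions and 66.7% in strong promoters. The median number of CpG dinucleotides in this window was 9, 3 and 18. Members without an annotated start were also GC-rich, with a median of 60.2% and 8 CpG. Repeats covered at least 50% of the window in 21 members (2.71%) and in 6.03% of the other distal regions. A regulatory element listed by RefSeq overlapped 17 members (2.19%) and 1.27% of the other distal regions. They included enhancers near Fos, Fosb, Sall1, Hmga2 and Med13l. Pileups at the site near Sall1, a zinc finger gene of organ development, were 77, 122, 107 and 214, and at the site near Hmga2, an architectural chromatin protein, 105, 168, 87 and 168.

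Consensus sequences of 21 factors or families were searched on both strands of the 201 bases, and shares are given with Wilson 95% intervals that cover counting error only. The CTCF consensus, a sequence of 12 letters, was present in 30 members (3.87%, interval 2.725 to 5.47). It was present in 10.95% of the other distal regions (10.55 to 11.4) and in 0.642% of strong promoters. With 1 mismatch allowed, these shares were 13.2%, 31.3% and 4.585%. Windows of the same length 1000 bp away from the summit of members held it in 0 and 1 of 775 cases, so that matches were concentrated near the summit. Among members without an annotated start it was present in 24 of 451 (5.32%, interval 3.602 to 7.80), and in 11.45% of the other distal regions without one.

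Some sequences typical of promoters were as frequent in members as in strong promoters. The NFY consensus CCAATCAG was present in 56 members (7.23%, interval 5.61 to 9.27), in 7.98% of strong promoters and in 1.74% of the other distal regions. The KLF consensus GGGNGTGGC was present in 66 members (8.52%, interval 6.75 to 10.7), in 9.94% of strong promoters and in 3.44% of the other distal regions. NFY matches were also present in 5.54% of members without an annotated start (interval 3.78 to 8.055), and in 1.68% of the other distal regions without one. KLF matches occurred in 8.65% and 3.31% of the same sets. Other promoter sequences lay between those of strong promoters and of the other distal regions. The NRF1 consensus CGCATGCGC was present in 0.774% of members, 2.75% of strong promoters and 0.227% of the other distal regions. For ETS factors (ACCGGAAGT) these shares were 0.516%, 1.83% and 0.098%, for YY1 (AAGATGGCG) 0.516%, 2.24% and 0.312%, and for ZNF143 (TACAANTCC) 1.03%, 2.75% and 0.490%. In members they rested on few matches, with 6 members for NRF1, 4 for ETS, 4 for YY1 and 8 for ZNF143. The YY1 interval of members, 0.201 to 1.32, included the share of the other distal regions.

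The POU octamer ATGCAAAT was present in 26 members (3.355%, interval 2.30 to 4.87), in 2.32% of the other distal regions and in 1.17% of strong promoters. For the octamer the interval of members reached down to the share of the other distal regions. The AP-1 consensus TGANTCA occurred in 37 members (4.77%) and in 7.37% of the other distal regions, with 44 and 41 members in the windows 1000 bp to either side. Its share in members was therefore no higher than in their flanks. Matches of lineage factors were few, and fewer than in the other distal regions for some of them. The FOX consensus TGTTTAC was present in 11 members (1.42%) and in 3.36% of the other distal regions. The letters AGATAAG, bound by GATA factors, occurred in 8 members (1.03%) and in 2.255% of the other distal regions. The TEAD consensus ACATTCCA occurred in 2 members (0.258%) and in 1.31%. In the windows 1000 bp to either side of members, FOX occurred in 26 and 23, GATA in 22 and 20 and TEAD in 8 and 5. These 3 sequences hold more A and T than G and C, and the part of the GC content of members was not tested. Others were about as frequent in members as in the other distal regions, with 1.03% and 1.06% for T-box (TCACACCT), 1.03% and 0.989% for SOX (AACAATGG), 2.32% and 2.11% for ZIC (CCTGCTGGG) and 0.645% and 0.708% for FOXH1 (AATCCACA). The absence of these letters says nothing about whether the factors were bound.

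**Figure D3:**
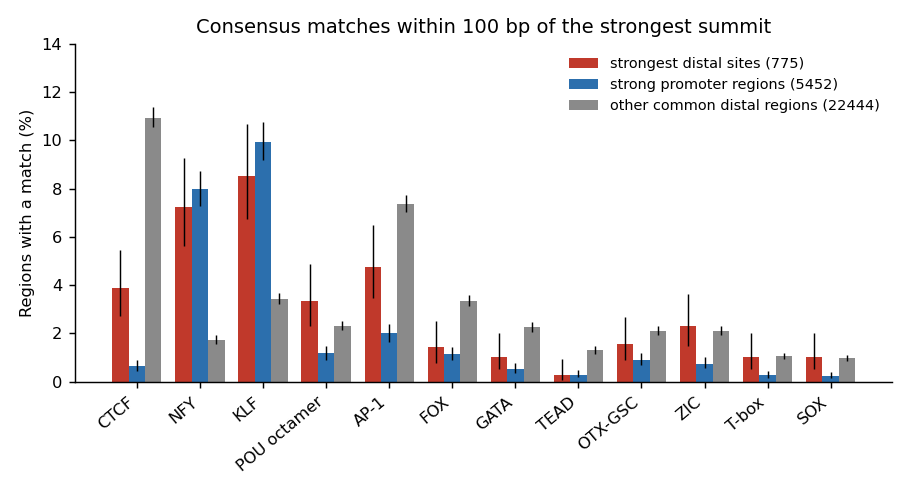
Percentage of regions with a match to each consensus within 100 bp of the strongest summit, for members, strong promoter regions and other distal regions; bars start at 0 and lines are Wilson 95% intervals. The CTCF bar of members (3.87%) stands well below that of the other distal regions (10.95%), whereas NFY and KLF are near strong promoters.

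To follow these features along the order of strength, all common distal regions were divided by their lowest percentile over the 4 libraries. The CTCF share was 7.87% at percentiles 0 to 20 and 14.6% at 40 to 60. It was 4.00% at 80 to 85, 5.14% at 85 to 90, 3.19% at 90 to 95 and 1.49% at 95 to 100, where 134 members lay. The CTCF consensus was therefore most frequent at distal regions of middle strength. The NFY share went from 1.12% in the lowest class to 9.16% at 90 to 95 and 14.2% at 95 to 100. A start of any annotated transcript was present in 9.17% of the lowest class, in 34.2% at 85 to 90 and in 61.2% at 95 to 100. Percentiles 80 to 85, just below the threshold, had an annotated start in 28.55% and NFY in 4.18%, so the threshold did not coincide with a step.

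**Figure D4:**
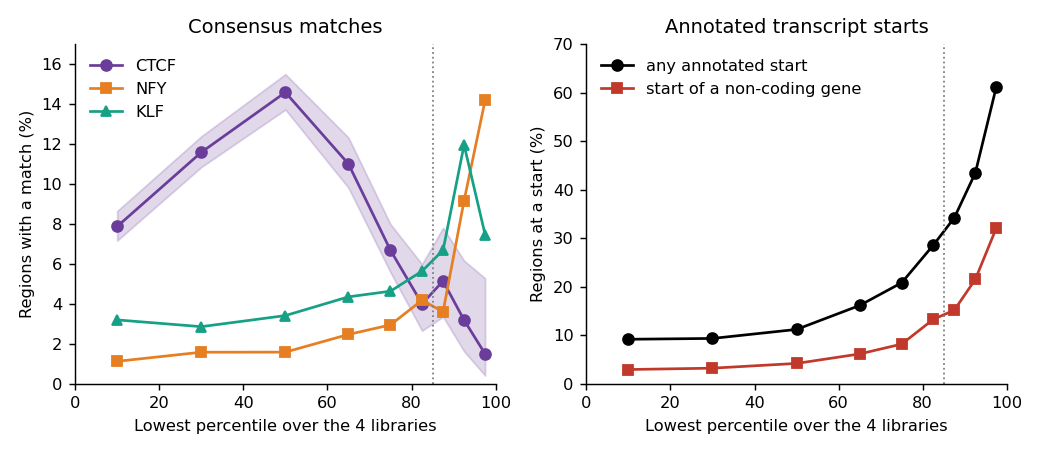
Percentage of common distal regions with a CTCF, NFY or KLF consensus (left, with the Wilson 95% interval shaded for CTCF) and at an annotated transcript start (right), against the lowest percentile of the region over the 4 libraries; the dotted line marks percentile 85, above which regions are members. CTCF is highest at 14.6% in the middle of the range and lowest, at 1.49%, in the strongest class, where 61.2% of regions are at an annotated start.

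The members with the CTCF consensus were described next. The highest was in an intron of Agrp, 13972 bp from the TSS of Ctcf itself (chr8:105622279-105623687), with pileups of 134, 203, 151 and 257. Agrp encodes a feeding peptide of the hypothalamus. Near Mt1, a metallothionein gene (chr8:94186262-94187712), they were 105, 130, 154 and 247, and near Bcan, which encodes a brain proteoglycan (chr3:87986776-87988240), 114, 177, 113 and 213. Both sites on chromosome 8 were higher in both K20R libraries, by 0.21 at Agrp and 0.70 at Mt1 on the log2 scale, and the site near Bcan overlapped. The deposited folds at Mt1 were 8.07, 7.86, 6.39 and 7.35, lower in both K20R libraries, and those at Agrp overlapped. Sites in an exon of Atn1 (125, 196, 145 and 244) and in an intron of Zfp286 (132, 162, 134 and 223) completed the 5 highest. The 30 members held 32 matches, 16 on each strand, at a median of 38 bp from the summit. Of the 30, 24 had no annotated start.

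The share of strong distal peaks with the CTCF consensus was also taken for each library on its own. It was 2.67% (47 of 1763) and 3.23% (77 of 2386) in WT and 4.215% (51 of 1210) and 4.44% (63 of 1420) in K20R. Both K20R shares were above both WT shares, by 1.38 percentage points on average (exact two-sided permutation test, p = 0.333, the smallest possible). In numbers of peaks the libraries overlapped, and the larger share came with fewer strong distal peaks in K20R.

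Members with promoter-like or octamer sequences were found at RNA genes, among others. At Mir22hg, the host gene of miR-22 (chr11:75460301-75463298), which held NFY and KLF matches, pileups were 151, 263, 208 and 281. At Mir210, a microRNA gene near Rassf7 known for its response to hypoxia (chr7:141221264-141222488), which held an octamer, they were 159, 260, 176 and 253. Mir210 overlapped between the genotypes on the relative scale, and Mir22hg lay slightly higher in both K20R libraries. The KLF site 5967 bp from the TSS of Ctdsp1, a phosphatase gene (chr1:74396961-74398433), had 147, 223, 147 and 251, and overlapped.

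To determine whether members differed between the genotypes, each was asked whether both K20R libraries lay on the same side of both WT libraries on the centred log2 scale. Over all 37692 common autosomal regions, both K20R libraries were below both WT libraries in 23.7% and above in 35.9%. Of the 775 members, 123 (15.9%) were lower and 336 (43.35%) were higher in K20R. In strong promoters these shares were 7.63% and 46.9%, and in the other distal regions 29.15% and 32.9%. The median difference of K20R from WT was 0.11 on the log2 scale in members and 0.08 over all common regions. The rule required members to be strong in both genotypes, so sites with a large loss or gain were left out by construction, and no test was run on single sites. The rule did not leave out both kinds equally. It left out 564 common distal regions strong in both WT and in neither K20R library, and 148 strong in both K20R and in neither WT library. With 7773 peaks in each library, these counts were 342 and 212. The part of the rule in the counts of lower and higher members was not tested.

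The size of the excess of higher over lower members depended on the scale. Higher sites made up 73.2% of the members with a call, and 60.2% of all common regions with a call. When libraries were centred on the members themselves, 22.8% of members were lower and 33.0% higher. On that scale 28.5% of common regions were lower and 27.6% higher, and 15.9% and 32.6% of strong promoters. Higher sites then made up 59.1% of members with a call and 49.2% of common regions with a call. After quantile normalization these shares were 59.6% and 56.7%, and with the deposited fold in place of the pileup 61.95% and 49.5%. With the fold, 10.1% of members were lower and 16.4% higher, compared with 21.7% and 21.2% of common regions. Few members differed widely, since only 8 (1.03%) were lower and 31 (4.00%) higher with all 4 pairs of libraries apart by over 0.5 on the log2 scale, compared with 7.38% and 6.60% of all common regions. In strong promoters, which passed the same percentile, these shares were smaller still, 0.422% and 2.73%.

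**Figure D5:**
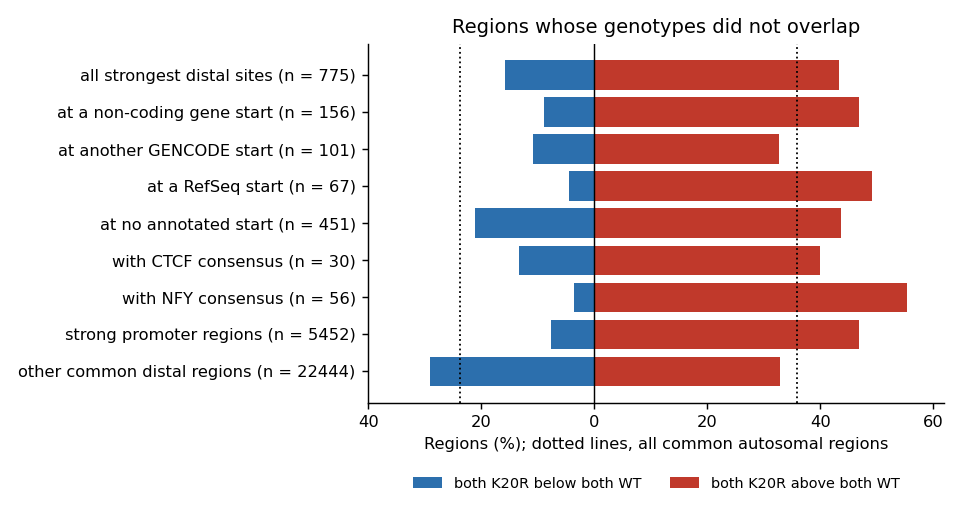
Percentage of regions in which both K20R libraries were below (left) or above (right) both WT libraries on the centred log2 pileup scale, for all members, for classes of members by annotated start or consensus, and for strong promoters and other distal regions; dotted lines mark all common autosomal regions (23.7% and 35.9%). On this scale lower sites are fewest at RefSeq starts and at NFY matches, and most frequent in the other distal regions.

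The classes of members differed in this respect, and so did classes of strength. Over all common distal regions, 33.3% were lower and 28.0% higher at lowest percentiles 0 to 20. These shares were 18.8% and 39.85% at 85 to 90, and 6.72% and 50.0% at 95 to 100. Annotated starts and NFY matches became more frequent along the same order, so these classes and strength were not told apart. Of the 451 members without an annotated start, 21.1% were lower and 43.7% higher. At starts of non-coding genes 8.97% of 156 were lower and 46.8% higher, and at starts in RefSeq alone 4.48% of 67 were lower and 49.25% higher. Of the 18 members at starts of snRNA, snoRNA or other small structural RNA genes, 0 were lower and 13 higher, and of the 23 at tRNA genes 0 were lower and 14 higher. Similar copies of at least 200 bp existed elsewhere for 12 of these 18 and 2 of these 23, and copies of at least 80 bp for 17 of 18 and 17 of 23, and their part in the difference was not tested. Of 56 members with the NFY consensus 2 were lower and 31 higher. Of 30 members with the CTCF consensus 4 were lower and 12 higher. With libraries centred on the members, lower sites were more frequent, with 17.95% at starts of non-coding genes, 11.9% at starts in RefSeq alone and 26.4% without an annotated start, and 34.6%, 37.3% and 33.9% were higher. On that scale 6 members with NFY were lower and 24 higher, 4 and 8 with CTCF, 0 and 12 at small structural RNA genes, and 2 and 12 at tRNA genes. Of all common regions, 28.5% were lower and 27.6% higher on the same scale. The median over sites of the difference of K20R from WT was 0.09 in members with the CTCF consensus and 0.12 in those without. When the median level of each group was instead taken in each library before K20R and WT were compared, members with the consensus differed by 0.06 more than those without, so no direction can be given for CTCF.

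Chromosome 8 stood apart. Of its 46 members, 37 (80.4%) were higher and 3 (6.52%) lower in K20R, and of all its common regions 58.4% were higher and 15.2% lower. On chromosome 14, 42.85% of common regions were lower and 23.9% higher in K20R. Of its 15 members, which the rule kept only if strong in both genotypes, 1 was lower and 9 were higher. Without chromosomes 2, 8 and 14, a set chosen after values were seen, 16.01% of 656 members were lower and 41.5% higher, compared with 23.3% and 35.1% of common regions.

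The 5 members with the widest gap to lower levels in K20R each lay on a different chromosome. In an intron of Hunk, a kinase gene (chr16:90437060-90437784), pileups were 146, 228, 82 and 141, a difference of -0.81 on the log2 scale. In an intron of Rbms2, an RNA-binding protein gene (chr10:128149512-128150157), they were 151, 207, 90 and 135. In an intron of Dlgap1, nearest to the TSS of the homeobox repressor gene Tgif1, they were 179, 312, 100 and 178. Both K20R relative levels at Hunk, 2.103 and 2.43, were below the WT levels of 3.84 and 4.07. Sites in an exon of Limch1 (107, 160, 70 and 98) and near Myh9, a non-muscle myosin gene (140, 216, 96 and 121), were lower in K20R as well. The deposited folds overlapped between the genotypes at Limch1 (10.4, 11.0, 10.8 and 13.35), in Dlgap1 and near Myh9. In Rbms2 they were lower in both K20R libraries (15.2, 14.9, 10.8 and 13.0), and in Hunk they were 11.9, 12.8, 10.2 and 11.9.

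The 5 widest gaps to higher levels in K20R lay at Zfp640, Gm42642, Gm10505, in an intron of Cdh16 and near Btaf1. At Zfp640, a zinc finger pseudogene (chr13:66698029-66698860), pileups were 59, 91, 144 and 206, a difference of 1.19 on the log2 scale, and the sequence aligned to 29 other places over at least 200 bp. Near Btaf1, which encodes an ATPase that removes TATA-binding protein from DNA (chr19:37018062-37019210), they were 69, 99, 118 and 182. At Gm10505 near Lemd2 they were 85, 100, 168 and 216. In the Cdh16 intron on chromosome 8 they were 83, 118, 139 and 216. The deposited folds in Cdh16 were 10.4, 12.25, 8.25 and 10.3, lower in both K20R libraries, as at Gm42642. Folds overlapped at Gm10505, and were higher in both K20R libraries at Zfp640 and near Btaf1. The sites near Btaf1 and in Cdh16 had no such copy elsewhere. The part of copies in the level at Zfp640 was not tested.

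Finally, genes of the lineages that form in embryoid bodies were examined for members within 50 kb of a TSS. The background was 775 members among 23219 common distal regions. None of 26 early mesoderm genes had a member, although 77 other distal regions lay near them, and none of 10 endoderm genes had one, with 23 other distal regions. None lay near the 10 fibroblast genes that would mark feeder cells or near the 5 housekeeping genes. Pluripotency genes had 2 members and 60 other distal regions. The site 17512 bp from Klf4, a factor of naive stem cells, had pileups of 60, 94, 89 and 122 and was higher in K20R, and the site 48741 bp from Tdgf1, the Nodal co-receptor gene, had 102, 167, 85 and 124 and was lower.

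Formative genes also had 2 members. The site near Dnmt3a, a DNA methyltransferase gene, had pileups of 74, 121, 83 and 125, and its genotypes overlapped on the relative scale. The site 49110 bp from Zic5, on chromosome 14, had 69, 114, 129 and 213 and was higher in K20R by 0.86 on the log2 scale. Among 18 cardiac genes, only Tnni1, the slow skeletal troponin I gene, had a member, with 87, 124, 96 and 160. This site lay 46281 bp from Tnni1 and nearer to another coding gene, Phlda3, at 12998 bp. It held the CTCF consensus and was higher in K20R. Among 10 neuroectoderm genes, only Nes, which encodes the intermediate filament nestin, had members, 3 in all. The strongest, 10096 bp from its TSS (chr3:87960203-87961347), had 128, 181, 141 and 222. Of the 11 CTCF and cohesin genes, only Ctcf had members within 50 kb, 2 in number. Both were higher in K20R and lay on chromosome 8, where 37 of 46 members were higher.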

How the data were processed

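ATAC-seq peak lists of 4 libraries were used, 2 of each genotype, grouped by the genotype label. The authors trimmed reads with Trim Galore, aligned them to mm10 with Bowtie2, kept mapping quality 30 and called peaks with MACS2. Each deposited list gives the interval, a whole-number score, the fold of the summit over local background, its −log10 p and −log10 q, and the summit position. The deposited score was 10 times the −log10 p. The authors' fold and −log10 p gave the summit pileup (fold as pileup plus 1 over background plus 1, p as its Poisson tail), whole within 0.1 in 100% of common regions. Peak numbers have many gaps, so called peaks had been removed by an unstated rule. List lengths, percentiles and counts of strong peaks rest on the peaks that remained.

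Peaks were merged at 1 bp of overlap, and percentiles were taken on −log10 p within each list. GENCODE vM21 and the RefSeq annotation of GRCm38.p6, the same build, gave positions. Python 3.11.15, pandas 2.3.3, scipy 1.17.1 and blastn 2.17.0 were used. Pileups were expressed relative to, or as log2 values centred on, each library's median over common autosomal regions. Regions are not replicates and were not tested. The 3 exact permutation tests were over libraries, whose p-values measure only the spread between these 4. The scripts were tested on simulated data. The members, gene lists, motifs and named sites were chosen with earlier results of these data known. Named sites were the 10 highest mean levels, the 5 highest with CTCF, the 5 widest gaps in each direction, the strongest within 50 kb of each listed gene and the 3 on either side of the threshold. Others are said to have been chosen after their values were seen. Alternatives covered the percentile, TSS distance, overlap, motif window, scaling, annotation and each left-out library.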

Additional observations from a re-analysis of the deposited data

How the results depend on the processing

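Read totals and signal tracks were not used, 2 libraries a group allow no exact permutation p below 0.333, and all shares rest on exact consensus letters. At percentile 90 in every library, there were 386 members, with 2.59% CTCF and 25.1% at non-coding starts. Of the 386, 50 (12.95%) were lower and 181 (46.9%) higher in K20R, compared with 23.7% and 35.9% of common regions. The CTCF share was 13.2% with 1 mismatch and 2.58% within 50 bp. With the deposited fold, 78 (10.1%) were lower and 127 (16.4%) higher, compared with 21.7% and 21.2% of common regions. With all pairs apart by over 0.5 on the log2 scale, 8 were lower and 31 higher, compared with 7.38% and 6.60% of common regions. Leaving out 1 library gave 798 to 917 members, 158 to 261 lower (123 with all, 261 without WT replicate 1) and 401 to 552 higher (336 with all, 552 without K20R replicate 1). Fewer pairs are then compared. Members were called lower in 19.8% to 30.0% and higher in 49.0% to 61.4%. Common regions were called lower in 33.1% to 34.6% and higher in 45.8% to 46.3%. The K20R minus WT difference of members with CTCF less that of members without, from the median level of each library, was 0.0586 on the log2 scale, opposite in sign to that from medians over sites, and ranged from -0.0705 to 0.117. It was reversed without K20R replicate 1 (-0.0705) and with the deposited fold (-0.0356), and the cause was not tested. Leaving out 1 library gave CTCF shares of 3.66% to 4.14%, and log2 ratios of strong distal peaks of 0.42 to 0.86. This ratio was 0.24 when the same number of strongest peaks, 7773, was taken from each library. The labels do not say that replicate numbers pair libraries. Deviations of same-numbered libraries correlated at 0.10 over common regions and 0.08 over members. With the replicate block, 156 members (20.1%) were lower and 405 (52.3%) higher, compared with 28.7% and 43.4% of common regions. The log2 ratio of strong distal peaks was then 0.65 (exact permutation p = 0.5). The CTCF difference per library stayed at -1.38 percentage points (exact permutation p = 0.5). Added after seeing the data, the full GENCODE set of protein-coding starts left 713 members with 3.93% CTCF. Of these, 118 (16.55%) were lower and 311 (43.6%) higher. Without members that have near-identical copies, 114 (16.6%) were lower and 295 (42.9%) higher. Of all common regions, 23.7% were lower and 35.9% higher.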
